A study of Rattus norvegicus with 6 samples.

Results

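Channels that open when the cell membrane is stretched were followed in RSC96, a line of immortalised Schwann cells of the rat, through 10 genes chosen by symbol: Piezo1, Piezo2, Tmem63a, Tmem63b, Trpv4, Trpm7, Trpc1, Pkd1, Pkd2 and Kcnk2. All 10 were among the 16849 genes of the deposited RNA-seq count table. The rule took them by name, with no threshold on a measured value, but they were chosen with earlier results of these data known. The 6 libraries formed 3 groups of 2. In the PVDF@PDA group, wild-type cells were held under hypoxia with macrophage-conditioned medium and a piezoelectric material, and in the PCL@PDA group under hypoxia with that medium and a material that is not piezoelectric, for 24 h per the series' design. The third group, labelled Control, carries no further treatment label, and neither its time nor whether it received the conditioned medium is given. Each group had 1 library of batch 1 and 1 of batch 3, called replicates 1 and 3. The titles number the latter library 3, while its library name and count column number it 2, and the title was followed. The free text of the libraries titled PCL@PDA describes a material without piezoelectricity but writes its name as PVDF@PDA, and here the title and treatment label decided the group. PVDF@PDA against PCL@PDA therefore compared a piezoelectric with a non-piezoelectric material. Any other property in which the materials differ cannot be told apart from piezoelectricity. Each material against Control asked about hypoxia, material and, if Control did not receive it, conditioned medium together. Any difference in time from Control cannot be told apart from these. The cells are 1 line in culture, and the labels do not say that libraries came from separate cultures, so p-values measure only the spread between these samples.

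Mechanosensitive channels turn membrane tension into ion flow. Piezo1 and Piezo2 are very large calcium-permeable channels opened directly by tension, Piezo2 being the touch channel of sensory neurons, and both have been studied in Schwann cells, whose membranes are deformed as nerves stretch and as myelin is laid down. The Tmem63 proteins are relatives of the plant osmosensing channels, TRP channels respond to stretch, swelling or lipids directly or downstream of other sensors, polycystins pair a large receptor-like protein with a channel subunit on cilia and other membranes, and Kcnk2 is a potassium leak channel opened by stretch.

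The libraries held 32760123 to 35389307 counts. A quasi-likelihood fit in edgeR over the 13018 genes that passed its filter on low counts called genes at a Benjamini-Hochberg adjusted p below 0.05, and every adjusted p below is from that fit unless another tool is named. On the first principal component, with 34.5% of the variance, the Control libraries (27.6 and 29.3) stood apart from the material libraries (-15.2 to -13.0). On the second, with 20.8%, PCL@PDA replicate 3 (-28.5) lay far from PCL@PDA replicate 1 (6.09). Control replicates 1 and 3 also lay apart there (13.7 and -13.6), while the PVDF@PDA libraries lay close together (10.7 and 11.6). Of 12 Schwann markers, all were in the table, with summed levels of 178 to 189 CPM (counts scaled to a common library size) in Control, 206 to 212 in PCL@PDA and 215 to 222 in PVDF@PDA. Defining ones were close to 0 (S100b 2 to 28 counts, Ngfr and Cdh19 0 to 4, Mbp 0 to 17 per library), while Ncam1 (101 to 138 CPM), Pmp22 (41.9 to 56.6) and Erbb3 (10.2 to 17.8) were present. Of 12 macrophage markers, 9 were in the table, summing to 7.83 to 7.95 CPM in Control, 7.12 to 8.04 in PCL@PDA and 8.08 to 8.15 in PVDF@PDA, with Ptprc and Aif1 at 0 or 1 count in every library. Of 6 fibroblast markers 5 were in the table, summing to 855 to 860 CPM in Control, 813 to 836 in PCL@PDA and 808 to 828 in PVDF@PDA, mostly from Col1a2, with Dcn at 0 or 1 count. Of the 4 tested, 2 were called higher and 1 lower than Control with each material, so single markers did not all follow the sum. Of 9 Schwann markers tested, 2 were called higher and 1 lower in PVDF@PDA, and 3 higher and 1 lower in PCL@PDA. Over all genes tested, 6.79% were called higher and 8.9% lower than Control in PVDF@PDA, and 8.77% and 11.3% in PCL@PDA. All 5 endothelial markers summed to 3.54 to 4.07, 2.48 to 2.72 and 2.52 to 3.42 CPM in the same order, and all 5 neuron markers to 0.689 to 2.94, 0.993 to 2.58 and 2.95 to 3.19. The Schwann, fibroblast and endothelial sums separated Control from both material groups, as the called channel genes did, and their part in those results was not tested.

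Of the 10 channel genes, 8 were measured well enough to test. Per length, as deposited FPKM (fragments scaled by gene length and library total), Trpm7 was the most abundant, at a mean of 45.5 and a range of 43.0 to 47.1 over the 6 libraries. Tmem63b followed at 23.4 (21.7 to 24.6), then Piezo1 at 15.3 (13.9 to 18.0) and Pkd2 at 14.9 (13.0 to 16.3). Piezo1 and Pkd2 could not be ordered, since Piezo1 was the higher in 2 of 6 libraries, at 0.923 to 1.21 times Pkd2. Below them stood Pkd1 at 7.11 (5.72 to 8.84), Tmem63a at 4.27 (3.27 to 5.57) and Trpc1 at 2.95 (2.77 to 3.30). The ranges of Tmem63a and Trpc1 overlapped, although Tmem63a was the higher within each of the 6 libraries, by 1.16 to 1.87 times. Piezo2 was far lower, at 0.218 (0.148 to 0.294). Ranked among the genes of the table by mean FPKM, Trpm7 lay at percentile 89.6, Tmem63b at 80.5, Piezo1 at 73.8, Pkd2 at 73.3, Pkd1 at 59.7, Tmem63a at 51.8, Trpc1 at 47.2 and Piezo2 at 28.3. The order of levels thus held in every group apart from the Piezo1 and Pkd2 pair. Differences between groups were small beside the range from Trpm7 to Piezo2, but not beside every gap between neighbours. Tmem63a had a mean of 3.35 FPKM in Control and 4.82 in PCL@PDA, beside 2.79 and 2.92 for Trpc1.

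**Figure D1:**
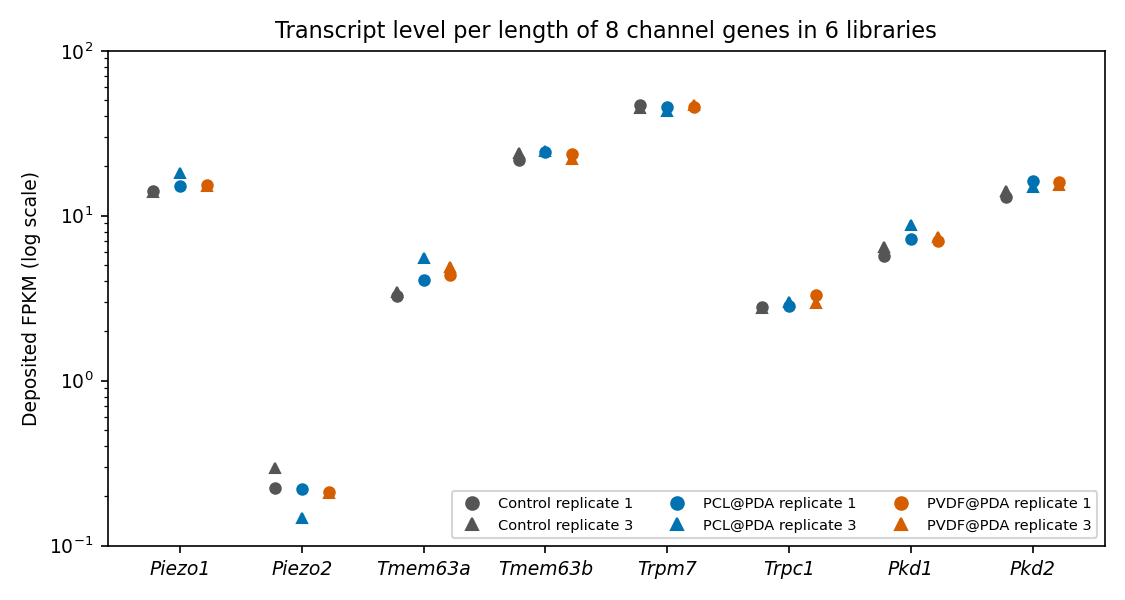
Deposited FPKM (vertical axis, log scale) of 8 channel genes (horizontal axis) in 6 libraries, with colour for the group and circles or triangles for replicate 1 or 3. Trpm7 lies between 43.0 and 47.1 in all libraries and Piezo2 between 0.148 and 0.294, and the groups of each gene lie close together.

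Within each pair of related genes, 1 member was the higher in all 6 libraries. Piezo1 was 47.1 to 122 times Piezo2 in FPKM. The extremes of that ratio came more from the spread of Piezo2, which had 53 to 111 counts per library against 4955 to 6212 for Piezo1. The highest ratio, in PCL@PDA replicate 3, fell where Piezo1 was also highest, and the lowest, in Control replicate 3, where Piezo1 was lowest. Tmem63b was 4.41 to 6.95 times Tmem63a, Trpm7 was 13.7 to 16.7 times Trpc1, and the channel subunit gene Pkd2 was 1.69 to 2.28 times its partner Pkd1.

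Trpv4, a calcium channel opened by swelling, heat and lipids, had 2 counts in PVDF@PDA replicate 1 and 0 in the other libraries. Kcnk2 had 1 count in PVDF@PDA replicate 1 and in each Control library and 0 elsewhere. Both were below the floor of 3 counts per library (0.0861 to 0.0911 CPM) in all 6 libraries, so neither was resolved at this depth, no fold is given, and neither entered the fit.

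Between the piezoelectric and the non-piezoelectric material, none of the 8 tested channel genes was called by edgeR, and none had an unadjusted p below 0.05. DESeq2 and limma also called 0. Of all 13018 genes tested, 8 were called in this comparison, or 0.0615% (7 higher and 1 lower in PVDF@PDA), with 1105 at an unadjusted p below 0.05. The log2 differences of the 8 channel genes, PVDF@PDA minus PCL@PDA, had a median of -0.02, against 0.00 over all genes tested, with 4 above and 4 below 0. Against Control, the channel genes that were called were all higher. In PVDF@PDA these were 2 of 8 (Tmem63a and Pkd1), or 25%, where 15.7% of all genes were called, 6.79% higher and 8.9% lower. In PCL@PDA 3 of 8 were called (Piezo1, Tmem63a and Pkd1), or 37.5%, where 20.1% of all genes were, 8.77% higher and 11.3% lower. With all 6 libraries, no channel gene was called lower in any of the 3 comparisons. The median difference of the 8 was 0.11 with either material, against 0.01 over all genes. Called or not, 5 of the 8 lay above 0 and 3 below in PVDF@PDA, and 6 above and 2 below in PCL@PDA. When libraries were scaled by their totals alone, the genes called over the table turned from 884 higher and 1158 lower to 1164 higher and 879 lower in PVDF@PDA, and from 1142 and 1474 to 1482 and 1070 in PCL@PDA, while the called channel genes became 3 and 4, all higher. On deposited FPKM, limma called 0 channel genes in either comparison with Control. Both comparisons use the same Control libraries, so what they have in common is not independent. In these bulk libraries, fewer cells of a type and less RNA per cell cannot be told apart.

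**Figure D2:**
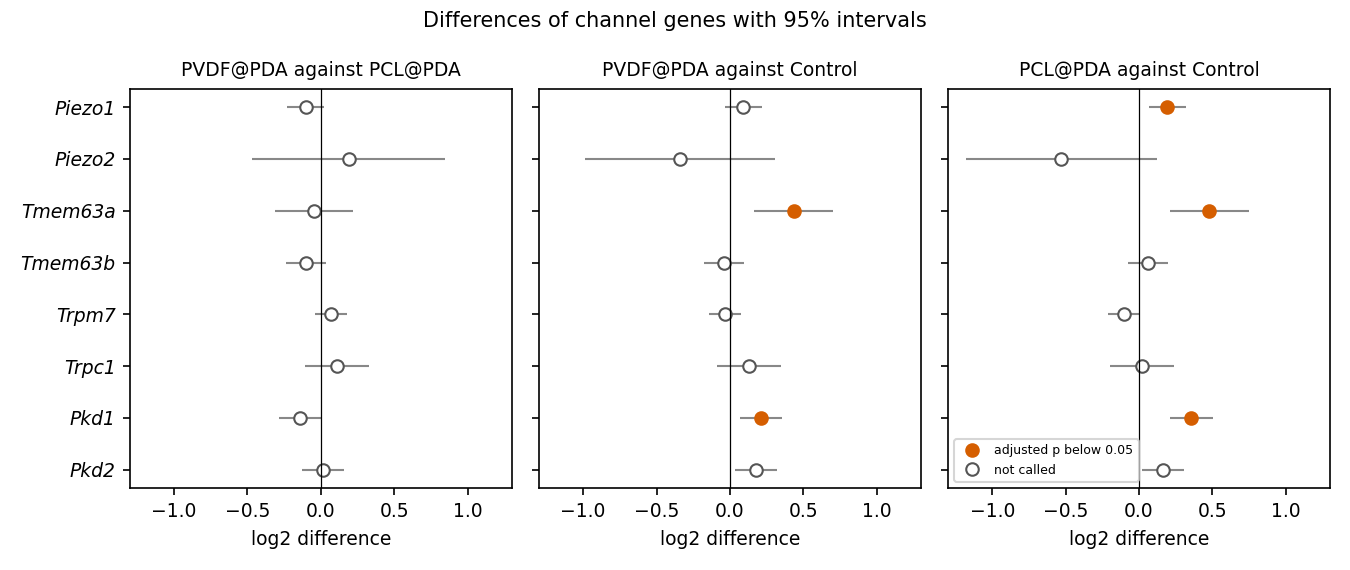
Log2 difference (horizontal axis) of each of 8 channel genes in the 3 comparisons, as points with 95% intervals, filled where the adjusted p was below 0.05. All points of PVDF@PDA against PCL@PDA are open, and the filled ones are Tmem63a and Pkd1 in both comparisons with Control and Piezo1 in PCL@PDA.

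Piezo1 (gene ID 361430) had TMM-scaled levels of 157 and 155 CPM in PVDF@PDA replicates 1 and 3, 154 and 181 in PCL@PDA and 149 and 144 in Control. All 4 material libraries lay above both Control libraries, and PCL@PDA replicate 3 was well above the rest. The share of all genes tested that separated from Control in this way is not given, here or for the genes below. Group means were 156 ± 1.51, 168 ± 19.5 and 147 ± 2.99 CPM (SD, n = 2), for PVDF@PDA, PCL@PDA and Control. Piezo1 rose in PCL@PDA by 14.4% over Control, a log2 difference of 0.19 (SE 0.06, adjusted p = 0.0209 in edgeR). In PVDF@PDA the log2 difference from Control was 0.09 (95% interval -0.04 to 0.22, adjusted p = 0.365), and between the materials -0.10 (-0.23 to 0.02, adjusted p = 0.658). The call in PCL@PDA ended without PCL@PDA replicate 3 (0.07, adjusted p = 0.542), without Control replicate 1 (adjusted p = 0.0697) or 3 (0.148), in DESeq2 with the replicate block (0.0501) and in limma (0.137 and 0.147), and in batch 1 alone the difference was 0.05 against 0.33 in batch 3. The annotated Piezo1 gene overlaps Ctu2, which had 323 to 436 counts per library and was not called, and the counting strand is not given, so shared reads cannot be told apart.

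Piezo2 (307380) had 2.25 and 2.19 CPM in PVDF@PDA, 2.34 and 1.55 in PCL@PDA and 2.43 and 3.19 in Control. Both Control libraries were above all 4 material libraries, but the lower of them exceeded the highest material library by less than the Control libraries differed from each other. The log2 difference from Control was -0.34 (95% interval -0.99 to 0.31, adjusted p = 0.534 in edgeR) in PVDF@PDA and -0.53 (-1.18 to 0.12, adjusted p = 0.275) in PCL@PDA. These intervals are the widest of the 8 genes, and a change of either sign was not resolved at its 53 to 111 counts. Between the materials the difference was 0.19 (-0.47 to 0.85, adjusted p = 0.908), with -0.06 in batch 1 and 0.50 in batch 3.

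Tmem63a (289318), a channel of intracellular and plasma membranes gated by tension, had 17.0 and 18.9 CPM in PVDF@PDA, 15.8 and 21.3 in PCL@PDA and 13.0 and 13.6 in Control. Every material library exceeded both Control libraries, and the PCL@PDA libraries enclosed the PVDF@PDA ones. Group means were 18.0 ± 1.33, 18.6 ± 3.92 and 13.3 ± 0.413 CPM. Tmem63a rose by 35.1% in PVDF@PDA (log2 0.43, SE 0.13, adjusted p = 0.0197 in edgeR) and by 39.5% in PCL@PDA (log2 0.48, SE 0.13, adjusted p = 0.00735), the largest differences from Control of any tested channel gene with a call. Between the materials the difference was -0.05 (95% interval -0.31 to 0.22, adjusted p = 0.948), with 0.11 in batch 1 and -0.17 in batch 3. The call in PVDF@PDA ended without PVDF@PDA replicate 3 (0.35, adjusted p = 0.215), Control replicate 1 (adjusted p = 0.117) or Control replicate 3 (0.0597), in DESeq2 with the replicate block (0.0525) and in limma (0.117 and 0.135), while leaving out PCL@PDA replicate 3 (0.24, adjusted p = 0.328) or Control replicate 1 (0.0627), or testing by limma (0.0850 and 0.0969), ended that in PCL@PDA.

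Its relative Tmem63b (363197) had 82.0 and 76.2 CPM in PVDF@PDA, 85.3 and 84.4 in PCL@PDA and 77.7 and 84.7 in Control. The Control libraries spanned most of the range, and no group stood apart from them. The log2 differences from Control were -0.04 (95% interval -0.18 to 0.10, adjusted p = 0.771 in edgeR) in PVDF@PDA and 0.06 (-0.07 to 0.20, adjusted p = 0.577) in PCL@PDA. Both PVDF@PDA libraries lay below both PCL@PDA libraries, at a difference of -0.10 (-0.24 to 0.04, adjusted p = 0.693). Tmem63b overlaps Mrpl14, at 105 to 189 counts per library, and shared reads cannot be told apart. Mrpl14 was not called in edgeR. Its log2 differences were -0.53 between the materials (unadjusted p = 0.0377 in edgeR), and 0.01 in PVDF@PDA and 0.54 in PCL@PDA (unadjusted p = 0.0350) from Control.

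Hypoxia-inducible factors can bind near the start of a gene at a core written ACGTG or GCGTG, and since both materials came with hypoxia, RefSeq promoter windows (rat build GRCr8, 250 bases before to 50 after the annotated start) were searched for these 5 letters on both strands. The table held windows for 7 of the 10 channel genes, and 41.6% of its 33469 windows had at least 1 match and 3.5% had 4 or more. Shown are Tmem63a and Pkd1, the genes called with both materials, and Trpm7, the most abundant and never called, each from 5′ to 3′ along the gene, with matches in capitals (read as CACGT or CACGC where on the opposite strand, and overlapping matches run together).
Tmem63a, chr13:95194960-95195259, plus strand: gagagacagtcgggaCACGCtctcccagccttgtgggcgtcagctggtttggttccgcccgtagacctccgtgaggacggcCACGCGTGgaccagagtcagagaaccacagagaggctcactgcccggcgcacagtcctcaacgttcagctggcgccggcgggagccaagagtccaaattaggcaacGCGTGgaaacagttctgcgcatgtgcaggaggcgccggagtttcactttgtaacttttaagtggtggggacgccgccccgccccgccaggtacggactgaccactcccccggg
Pkd1, chr10:14078429-14078728, plus strand: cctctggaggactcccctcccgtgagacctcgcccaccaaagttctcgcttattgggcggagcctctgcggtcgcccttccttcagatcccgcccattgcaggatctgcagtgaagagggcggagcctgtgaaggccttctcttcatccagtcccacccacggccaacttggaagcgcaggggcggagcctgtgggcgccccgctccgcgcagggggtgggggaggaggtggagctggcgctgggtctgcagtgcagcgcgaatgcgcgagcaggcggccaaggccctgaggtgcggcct
Trpm7, chr3:134588064-134588363, minus strand: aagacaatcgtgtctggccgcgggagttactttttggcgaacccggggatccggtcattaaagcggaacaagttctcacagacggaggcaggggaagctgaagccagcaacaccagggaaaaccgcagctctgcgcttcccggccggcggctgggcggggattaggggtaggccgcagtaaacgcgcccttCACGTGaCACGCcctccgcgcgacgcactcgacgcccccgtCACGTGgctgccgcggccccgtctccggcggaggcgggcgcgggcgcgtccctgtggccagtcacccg
Tmem63a held 4 matches, all GCGTG, of which 1 pair overlaps. Pkd1 held 0, which says only that these letters are absent from this window. Trpm7 held 5, of which 4 are the strands of a pair of CACGTG palindromes. Of the other windows, Piezo2 had 3 matches, Trpv4 had 1, Kcnk2 had 1 and 0 at its pair of starts, and Pkd2 had 0. The printed windows are rich in G and C (Tmem63a 63.7%, Pkd1 and Trpm7 68.0%), those of Kcnk2 are not (44.3% and 41.7%), beside a median of 51.7% over all windows. A match is a run of letters and was not measured as a bound site, and genes with and without matches were found both among those called and among those not called.

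Trpm7 (679906), a magnesium and calcium channel fused to a kinase, had 327 and 338 CPM in PVDF@PDA, 328 and 305 in PCL@PDA and 348 and 332 in Control. Its libraries lay within a narrow band, at 10464 to 11591 counts each. The log2 difference from Control was -0.03 (95% interval -0.14 to 0.07, adjusted p = 0.740 in edgeR) in PVDF@PDA and -0.10 (-0.21 to 0.01, adjusted p = 0.186) in PCL@PDA, where both libraries lay below both Control libraries. Without PCL@PDA replicate 1 the latter became -0.16 with an adjusted p of 0.0142. Between the materials it was 0.07 (-0.04 to 0.17, adjusted p = 0.740), and these intervals are the narrowest of the 8 genes.

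Trpc1 (89821), a calcium-permeable channel that joins other TRP subunits and has been tied to store refilling, had 26.7 and 23.9 CPM in PVDF@PDA, 23.1 and 23.8 in PCL@PDA and 23.4 and 22.8 in Control. Both PVDF@PDA libraries lay above all others, replicate 3 by very little. The log2 difference was 0.11 (95% interval -0.11 to 0.33, adjusted p = 0.801 in edgeR) between the materials, 0.13 (-0.08 to 0.35) from Control in PVDF@PDA and 0.02 (-0.20 to 0.24) in PCL@PDA.

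Pkd1 (24650), the large receptor-like polycystin mutated in polycystic kidney disease, had 101 and 105 CPM in PVDF@PDA, 103 and 125 in PCL@PDA and 84.1 and 94.1 in Control. All 4 material libraries exceeded both Control libraries, with PCL@PDA replicate 3 the highest. Group means were 103 ± 3.10, 114 ± 15.2 and 89.1 ± 7.06 CPM. Pkd1 rose by 28.0% in PCL@PDA (log2 0.36, SE 0.07, adjusted p = 0.000277 in edgeR), which was the smallest adjusted p of the channel genes, and by 15.9% in PVDF@PDA (log2 0.21, SE 0.07, adjusted p = 0.0369). Between the materials the log2 difference was -0.14 (95% interval -0.29 to 0.00, unadjusted p = 0.0513, adjusted p = 0.592). The call in PCL@PDA held with each library left out (0.21 without PCL@PDA replicate 3 to 0.49 without PCL@PDA replicate 1) and in 14 of 16 alternatives, the exceptions being limma on either FPKM scale (adjusted p = 0.0877 and 0.0754). That in PVDF@PDA ended without PVDF@PDA replicate 1 (0.24, adjusted p = 0.0576), PVDF@PDA replicate 3 (0.18, 0.232) or Control replicate 1 (0.13, 0.387), in DESeq2 (0.0850) and in limma (0.236 and 0.255). Pkd1 overlaps Tsc2, which had 2063 to 2495 counts per library and log2 differences from Control of -0.13 and -0.05, neither called.

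Pkd2 (498328), the channel subunit that Pkd1 pairs with, had 77.8 and 73.4 CPM in PVDF@PDA, 78.8 and 70.9 in PCL@PDA and 64.6 and 69.2 in Control. Here too every material library lay above both Control libraries, but PCL@PDA replicate 3 was the lowest of the 4 rather than the highest. The log2 difference from Control was 0.18 (95% interval 0.03 to 0.32, unadjusted p = 0.0181, adjusted p = 0.0892 in edgeR) in PVDF@PDA and 0.16 (0.02 to 0.31, unadjusted p = 0.029, adjusted p = 0.109) in PCL@PDA, so neither was called. With libraries scaled by their totals alone both passed (adjusted p = 0.0359 and 0.0382). PVDF@PDA also passed when only the 4 libraries compared were fitted (0.0318) and without PCL@PDA replicate 1 (0.0291) or 3 (0.0323), and PCL@PDA without PCL@PDA replicate 3 (0.0206). The difference came mainly from batch 1 (0.27 and 0.29) rather than batch 3 (0.08 and 0.03), and between the materials it was 0.01 (-0.13 to 0.16).

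**Figure D3:**
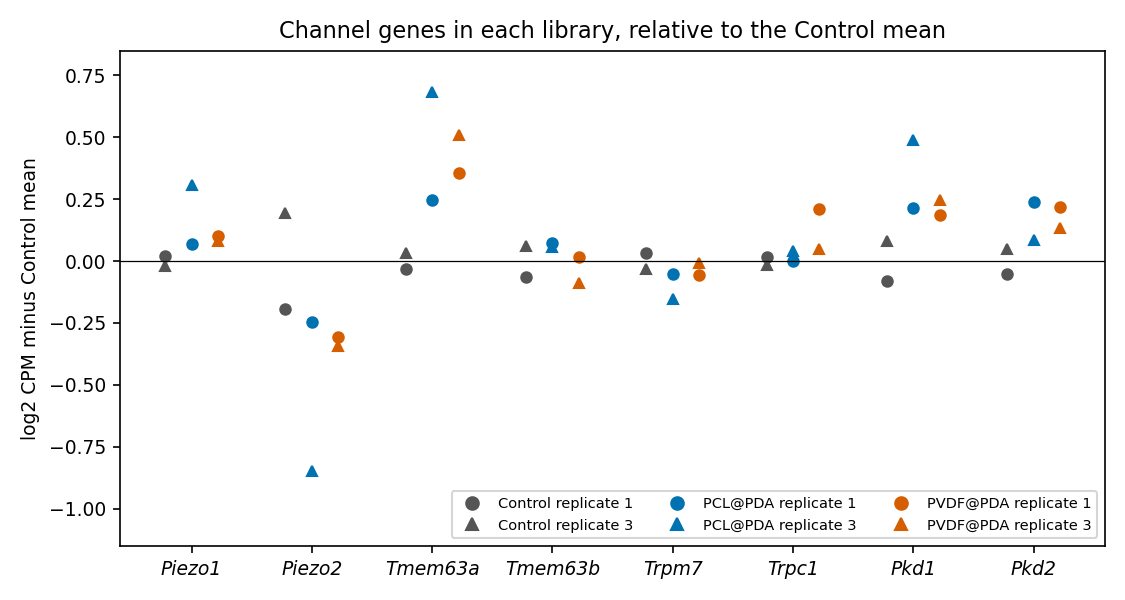
Log2 CPM minus the mean of the Control libraries (vertical axis) for 8 channel genes in each library, with colour for the group and circles or triangles for replicate 1 or 3. The material libraries of Tmem63a and Pkd1 lie above both Control libraries, and PCL@PDA replicate 3 (blue triangles) is the highest for Piezo1, Tmem63a and Pkd1 and the lowest for Piezo2 and Trpm7.

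The comparison of the materials depended on which PCL@PDA library was used. PCL@PDA replicate 3 held the highest level of 3 channel genes (Piezo1, Tmem63a and Pkd1) and the lowest of 2 (Piezo2 and Trpm7). Over all tested genes, that library was the highest of the 6 in 22.4% and the lowest in 23.3%. Without PCL@PDA replicate 1, Piezo1 (log2 -0.22, adjusted p = 0.0106 in edgeR) and Pkd1 (-0.27, adjusted p = 0.00324) were called lower with the piezoelectric material. Without PCL@PDA replicate 3 their differences were 0.02 and -0.0008, and no channel gene was called. The groups of Piezo1 and Pkd1 therefore differed between the materials by less than the PCL@PDA libraries differed from each other.

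**Figure D4:**
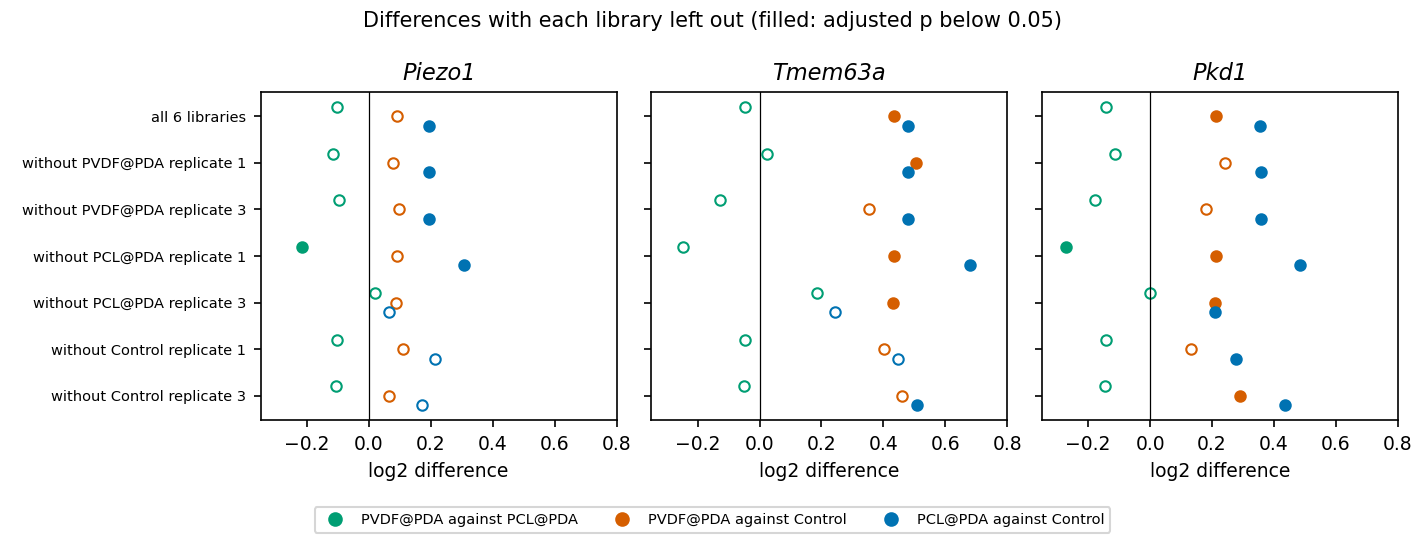
Log2 differences (horizontal axis) of Piezo1, Tmem63a and Pkd1 in the 3 comparisons with all 6 libraries and with each library left out in turn (vertical axis), filled where the adjusted p was below 0.05. For PVDF@PDA against PCL@PDA, Piezo1 ranges from -0.22 to 0.02, and the Pkd1 points of PCL@PDA against Control are filled in every row.

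Genes whose log2 CPM most resembled each called channel gene over the 6 libraries were sought among 8904 genes. Nearest to Piezo1 were Lrrc20 (Pearson r = 0.990, n = 6 libraries), Pola2 (0.989), a subunit of the primase polymerase, and Fancg (0.985), of the DNA crosslink repair pathway. Nearest to Tmem63a were Slc6a8 (0.994), the creatine transporter, and Nprl2 (0.989). Nearest to Pkd1 were Grn (0.995), the progranulin precursor, Rhod (0.994), a small GTPase, and Mif (0.993). All the genes named here were highest in PCL@PDA replicate 3. The values are a description, being among the highest of the 8904 searched, over libraries that share groups and batches.

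Genes around these channels were read from 4 lists. Of their calls against Control described below, limma on FPKM kept those of Orai1, Cavin3 and, in PCL@PDA, Mdfic, and none of the others. Of 33 other channels linked to mechanical gating, 29 were in the table and 19 were tested, and 10 were too low, among them Tmc1, Tmc2, Panx1 and Kcnk10. The most abundant was Gja1, the gap junction protein connexin 43, at 74.3 FPKM. In PVDF@PDA 0 of 19 were called by edgeR, DESeq2 or limma, either against PCL@PDA or against Control, with 0 and 2 at an unadjusted p below 0.05 in edgeR (without PCL@PDA replicate 3, 0 and 1 called). The shares called against Control were 0% in PVDF@PDA and 5.26% in PCL@PDA, beside 15.7% and 20.1% of all genes. Only 8 genes of the list had a mean above 1 FPKM, so a change in most of the 19 was hard to resolve. In PCL@PDA 1 was called, Gja1, which fell from 250 ± 6.44 CPM in Control to 224 ± 7.0 (log2 -0.15, adjusted p = 0.0370). That call ended with any library left out except PCL@PDA replicate 1 (adjusted p of 0.257 without Control replicate 3) and with library totals alone (0.122) or only the 4 libraries compared (0.0674).

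Partners and regulators of the channels numbered 20, of which 17 were in the table and 15 were tested. The integrin subunit Itgb1 was the most abundant, at 679 FPKM, and was not called. Mdfic, whose protein has been described as an auxiliary subunit of Piezo channels, fell with both materials, from 131 ± 0.987 CPM in Control to 111 ± 5.43 in PVDF@PDA (log2 -0.24, adjusted p = 0.00361 in edgeR) and 100 ± 3.8 in PCL@PDA (log2 -0.39, adjusted p = 3.03e-06). The call in PVDF@PDA ended without PVDF@PDA replicate 3 (adjusted p = 0.142), and the one in PCL@PDA held with each library left out. Orai1, the pore of store-operated calcium entry, fell in PVDF@PDA from 15.4 ± 0.865 to 11.0 ± 0.724 CPM (log2 -0.49, adjusted p = 0.00994), a call that ended without PVDF@PDA replicate 3 (adjusted p = 0.137) or Control replicate 3 (0.106). Cnnm2, a magnesium transport protein, rose in PCL@PDA from 10.1 ± 1.75 to 13.8 ± 0.385 CPM (log2 0.46, adjusted p = 0.0243), a call that ended without PCL@PDA replicate 1 (adjusted p = 0.0694), PCL@PDA replicate 3 (0.0503) or Control replicate 3 (0.352), and in DESeq2 with the replicate block (0.0776). The counts were thus 2 lower in PVDF@PDA, and 1 higher and 1 lower in PCL@PDA, with 0 between the materials and 3 there at an unadjusted p below 0.05. The share called against Control was 13.3% (2 of 15 genes) with each material, not set apart from the 15.7% and 20.1% of all genes. With the replicate block it was 3 genes in each comparison with Control, and with a library left out 0 to 3 in PVDF@PDA (0 without PVDF@PDA replicate 3) and 1 to 3 in PCL@PDA (1 without Control replicate 3). Without PCL@PDA replicate 3 they were 3 (1 higher and 2 lower), 2 and 0, and with library totals alone PCL@PDA had 3 higher and 1 lower. Between the materials DESeq2 and limma also called 0 genes in each of the 4 lists, whereas without PCL@PDA replicate 1 edgeR called 2 here, 0 of the other channels and, of the lists that follow, 1 caveolar and 2 calcineurin genes.

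Caveolae are membrane pits that flatten under tension, and ezrin-family proteins tie the membrane to actin. All 15 genes of this list in the table (of 16 listed) were tested, and 3 were lower than Control in PVDF@PDA and 5 in PCL@PDA, with 0 higher. Of all genes, 8.9% and 11.3% were called lower in these comparisons. Without PCL@PDA replicate 3 the list's counts were 3 and 4, and with library totals alone 3 and 3. They were 1 and 1 in limma, 1 and 4 without PVDF@PDA replicate 1, 2 and 4 without PVDF@PDA replicate 3, 2 and 2 without Control replicate 1, and 1 and 2 without Control replicate 3. Cavin3, a caveolar coat protein, fell from 46.6 ± 3.66 CPM in Control to 31.6 ± 1.06 in PVDF@PDA (log2 -0.56, adjusted p = 1.46e-05 in edgeR) and 33.7 ± 4.76 in PCL@PDA (log2 -0.47, adjusted p = 0.000203), and both calls held with each library left out. Cav2 fell in PCL@PDA (log2 -0.21, adjusted p = 0.00724), as did Rdx, the membrane linker radixin (-0.21, adjusted p = 0.0101). Msn, or moesin, the most abundant of the list at 217 FPKM, fell by 0.18 (adjusted p = 0.0103) and by 0.15 (0.0250) on the log2 scale in PVDF@PDA and PCL@PDA. Cav1, the main caveolar protein, named after its values were seen, fell in both (log2 -0.19, adjusted p = 0.0119, and -0.16, 0.0240). The calls of these 4 ended with some libraries left out. Cav2 was not called without Control replicate 3 (adjusted p = 0.106), nor was Rdx when PCL@PDA replicate 3 (0.108) or Control replicate 1 (0.212) was left out. Cav1 was not called without Control replicate 3 (0.160 in PVDF@PDA and 0.224 in PCL@PDA), without PVDF@PDA replicate 1 in PVDF@PDA (0.202) or Control replicate 1 in PCL@PDA (0.0757). Msn in PVDF@PDA was not called when any of the PVDF@PDA or Control libraries was left out (0.0785 to 0.146), nor in PCL@PDA without Control replicate 1 (0.167) or 3 (0.128) or either PVDF@PDA library. Medians of the list were -0.06 and 0.00 against Control and -0.03 between the materials, where 0 were called and 1 had an unadjusted p below 0.05.

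Calcium that enters through these channels can act through calmodulin, the phosphatase calcineurin and the NFAT transcription factors. Of 25 such genes 24 were in the table and all were tested, led by Calm2 at 499 FPKM, which was not called. In PVDF@PDA 1 was lower than Control and in PCL@PDA 2 were, with 0 higher and 0 called between the materials (1 there at an unadjusted p below 0.05). The shares of 4.17% and 8.33% were below the 15.7% and 20.1% of all genes. Camk2d, a calmodulin-dependent kinase, fell from 151 ± 5.58 CPM in Control to 126 ± 8.50 in PVDF@PDA (log2 -0.26, adjusted p = 0.00156 in edgeR) and 132 ± 2.22 in PCL@PDA (log2 -0.19, adjusted p = 0.0197). Nfat5, the NFAT relative that responds to osmotic stress, fell in PCL@PDA from 626 ± 38.6 to 542 ± 3.2 CPM (log2 -0.21, adjusted p = 0.00192). Camk2d was not called in PVDF@PDA without PVDF@PDA replicate 3 (adjusted p = 0.134) or Control replicate 3 (0.0505), nor in PCL@PDA without Control replicate 3 (0.209), and Nfat5 was not called without Control replicate 1 (0.186). The counts were 2 and 3 without PCL@PDA replicate 3 and 2 and 7 without PCL@PDA replicate 1, all lower. They were 0 and 0 in limma, 0 and 2 without PVDF@PDA replicate 3, 1 and 1 without Control replicate 1 or with library totals alone, and 0 and 1 without Control replicate 3.

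**Figure D5:**
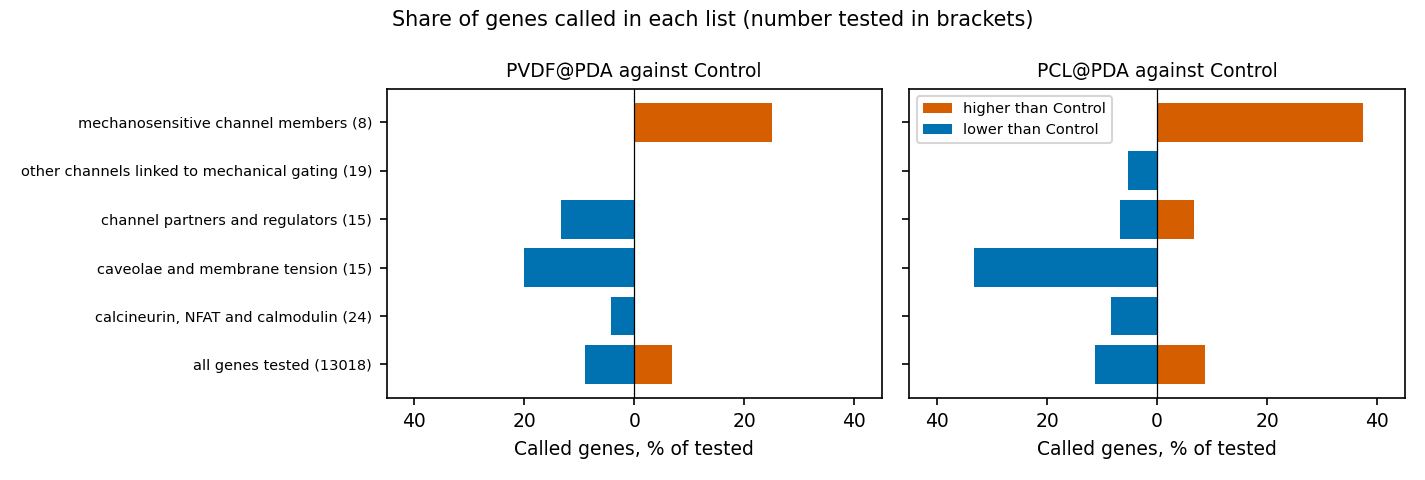
Called genes as a percentage of those tested (horizontal axis), higher than Control to the right and lower to the left, for the channel genes, 4 lists around them and all genes tested (vertical axis, number tested in brackets), in PVDF@PDA and in PCL@PDA. The channel genes have calls to the right only (25% and 37.5%), and the caveolae list to the left only (3 and 5 of 15).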

How the data were processed

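RNA-seq was analysed from 6 libraries of RSC96 cells in 3 groups of 2, named by title and treatment label. The authors deposited raw counts per gene (32760123 to 35389307 per library) and FPKM per library. For all 15690 genes with reads in at least 2 libraries, count and FPKM gave a single gene length (tolerance 0.0001, relative). The submitters' processing notes list DESeq2 1.4.5 and mRatBN7.2 but not their role. For aligner, counter and strand, nothing is given in the sources here. Symbols of genes come from the count table, and RefSeq GRCr8 gave promoter windows and the names of overlapping genes.

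The count fit used edgeR 4.0.16 under R 4.3.3, with TMM factors, filterByExpr (13018 genes kept, 3831 removed) and a robust quasi-likelihood fit of 3 group means with 3 residual degrees of freedom, using the 2-sided F test with Benjamini-Hochberg adjustment over all genes kept. The biological coefficient of variation was 6.47%. The fit drew each gene's spread toward a trend over all genes, with a median of 50.3 prior degrees of freedom. For a typical gene, SEs and p-values thus rest more on that shared spread than on its own libraries. The 3 groups also shared it, although replicates differed more in PCL@PDA (chi-square per degree of freedom 9.04) than in PVDF@PDA (4.39) or Control (5.05). SEs may therefore be too small where PCL@PDA is compared. The floor of 3 counts covers counting error only, while the intervals of log2 differences come from the fit and include the spread between libraries. The alternatives were a replicate block, other scaling, no filter, a non-robust fit, 4 libraries only, DESeq2 1.42.0 with and without the block, limma 3.58.1 on log2(FPKM + 1) and log2(FPKM + 0.1), and each library left out. The labels give batch 1 and batch 3 to the replicate numbers, so the numbers pair the samples. Deviations of same-batch libraries correlated at -0.02 between the materials, and with those of Control at 0.04 for PVDF@PDA and 0.13 for PCL@PDA.

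The channel genes and the 4 lists around them were chosen with earlier results of these data known. Named were all 10 channel genes, up to 4 called genes and the most abundant gene of each list, and, for Piezo1 and each called channel gene, the 3 genes of mean log2 CPM of at least 3 with the highest r. A few genes that this rule or the marker lists name are not reported here.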

Additional observations from a re-analysis of the deposited data

How the results depend on the processing

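Of 384 re-estimates of the channel genes' differences, 339 kept direction and side of the threshold, 24 lost and 9 gained a call, and 12 changed sign. With the replicate block the channel genes called were 0, 2 and 3 (PVDF@PDA against PCL@PDA, PVDF@PDA against Control, PCL@PDA against Control), and in edgeR it changed no channel gene's call. Over the table it called 59 genes between the materials in place of 8. Channel genes called in PVDF@PDA against Control were 1 in DESeq2 (Pkd1 lost) and 1 with its replicate block (Tmem63a lost), those in PCL@PDA against Control were 3 and 2 (Piezo1 lost), and limma on either FPKM scale called 0 in both comparisons with Control. Leaving out a library gave 0 to 2, 0 to 3 and 1 to 4 channel genes in the 3 comparisons. Genes called over the table between the materials were 5 with library totals alone, 17 with no filter, 13 in DESeq2 with the replicate block, 0 in limma on either scale, and 0 to 827 with a library left out. Against Control they were 926 and 997 (PVDF@PDA) and 1366 and 1447 (PCL@PDA) in limma on log2(FPKM + 1) and log2(FPKM + 0.1), and 1031 to 2869 and 1346 to 3173 with a library left out. With a library left out, log2 differences between the materials that crossed 0 ran from -0.22 to 0.0202 (Piezo1), -0.0791 to 0.52 (Piezo2), -0.25 to 0.19 (Tmem63a) and -0.0602 to 0.0924 (Pkd2), and against Control from -0.10 to 0.0209 (Tmem63b, PVDF@PDA) and -0.0051 to 0.0416 (Trpc1, PCL@PDA). Trpm7 in PVDF@PDA against Control turned to 0.0029 with library totals alone and 0.0028 in limma on either scale. The cause of these moves was not tested. With 2 libraries a group, differences within the printed intervals could not be resolved.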
